A study of Mus musculus with 6 samples.

Results

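Mitochondrial ribosomal proteins were examined in tumor-infiltrating regulatory T cells (Tregs) with and without Ku70, the DNA end-binding protein encoded by Xrcc6. The set was every gene symbol of the RNA-Seq table that starts with Mrpl or Mrps followed by a digit, which gave 78 of 15319 symbols, 49 named for the large (Mrpl) and 29 for the small (Mrps) subunit. WT mice carried Foxp3Yfp-Cre and cKO mice were Xrcc6flox/floxFoxp3Yfp-Cre, so both groups expressed Cre from the Foxp3 locus, which limits deletion to cells that express Foxp3. All mice were on a C57BL/6J background, were 8 to 10 weeks old when LLC cells, a mouse lung carcinoma line that colonizes the lung, were given intravenously, and the tumors were taken 21 days later. There were 3 libraries per group, and neither the labels nor the methods say whether a library came from 1 mouse or a pool, so the p-values measure the spread between these libraries, which may be partly technical.

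The mitochondrial ribosome (mitoribosome) is built in the mitochondrial matrix from ribosomal RNAs transcribed there and from proteins that are encoded in the nucleus, made in the cytosol and imported. It translates the few proteins encoded by mitochondrial DNA, which are core subunits of the respiratory chain and of ATP synthase, and its small subunit decodes the mRNA while its large subunit forms the peptide bonds. Activated T cells and Tregs depend on respiration, and the genes of these proteins are transcribed in nearly all cells. The name of a gene does not always give the place of its protein: Mrps18a and Mrps30 sit in the large subunit in ribosome structures, and Mrps36 is known as a component of the 2-oxoglutarate dehydrogenase complex of the citric acid cycle.

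The 78 genes lay on 17 chromosomes, and many shared their start region with another gene. Of the 78, 33 (42.3%) started within 1000 bases of the start of a gene on the other strand, against 14.6% of the 14657 protein-coding genes of the table. Neighbors in this head-to-head arrangement included Ndufb5, a complex I subunit next to Mrpl47, Twnk, the mitochondrial DNA helicase next to Mrpl43, Fau, which encodes a cytosolic ribosomal protein, next to Mrpl49, and Psma2, a proteasome subunit next to Mrpl32. Mrpl46 of the large and Mrps11 of the small subunit were neighbors of each other on chromosome 7. Where gene bodies overlap, reads of the pair may not be told apart: 36 of the 78 overlap a gene on the other strand, Mrps18a, Mrps22, Mrpl3, Mrpl10, Mrpl12 and Mrpl49 among them, and 13 a gene on their own strand, as Mrps6 does with Slc5a3. Promoters, taken as 250 bases before and 50 after the start in RefSeq (GRCm38.p6), were found for 69 of the 78 genes and for 12033 genes of the table. A gene was counted for a motif if the window of any of its listed starts held it. The core ETS motif CCGGAAG, read on both strands, was present for 26 of the 69 genes (37.7%) and for 17.6% of the 12033. It was present for 15 of 43 genes of the large and 11 of 26 of the small subunit. The longer YY1 motif was in 5 (7.25% against 1.48%) and that of NRF1 in 3 (4.35% against 2.02%), which were those of Mrpl32, Mrpl39 and Mrpl9. The share was below that of the 12033 genes for the SP1 motif GGGCGG (49.3% against 63.1%), the E-box CACGTG (7.25% against 10.8%), the TATA box TATAAA (7.25% against 10.0%) and the CRE motif TGACGTCA (2.9% against 3.25%). These shares are descriptions with no test, motifs can share letters, and a match says only that the letters are in the window. A gene with more listed starts has more windows that can match, and the shares do not allow for this.

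**Figure D1:**
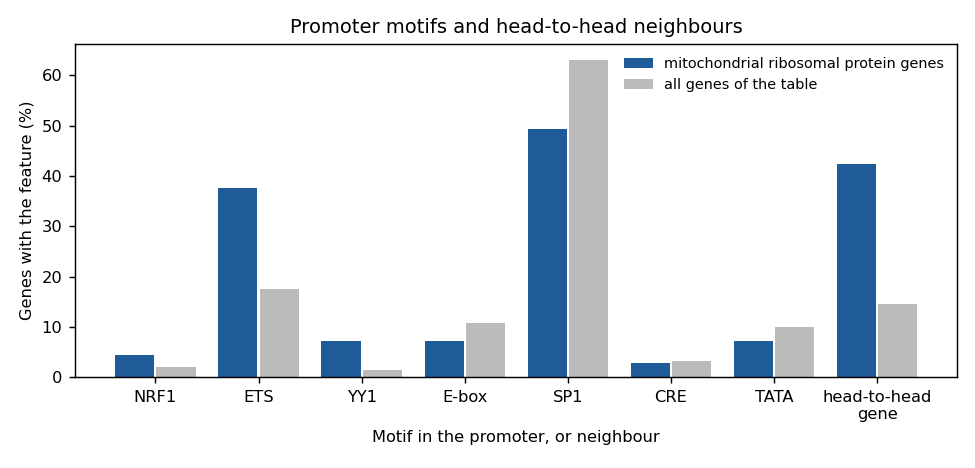
Share of genes (y axis, percent) whose promoter holds each motif, or that have a head-to-head neighbor within 1000 bases (x axis), for mitochondrial ribosomal protein genes (blue) and all genes of the table (gray; for neighbors, its protein-coding genes). The ETS motif (37.7% against 17.6%) and the head-to-head arrangement (42.3% against 14.6%) stand above the background, and the SP1 motif (49.3% against 63.1%) stands below it.

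The 250 bases before the RefSeq start are shown for 4 genes on which the results below turn: Mrpl55, the gene of lowest p, Mrpl52, the most abundant of the 78 per kilobase of merged exons, Mrps22, which had no count in one library, and Mrps17, whose 3 cKO libraries were nearly equal. They lie at chr11:59202236-59202485 (plus strand), chr14:54426659-54426908 (plus), chr9:98601680-98601929 (minus) and chr5:129715247-129715496 (plus) of GRCm38, outside the annotated body of their own gene, and are written 5′ to 3′ on the strand of the gene. Capitals mark SP1 motifs in Mrpl55 (3 matches), an ETS motif in Mrpl52, and an SP1 and then an ETS motif in Mrps22. In Mrps17 they mark a match to the letters TATAAA, not close to the start, and then an SP1 motif.
Mrpl55: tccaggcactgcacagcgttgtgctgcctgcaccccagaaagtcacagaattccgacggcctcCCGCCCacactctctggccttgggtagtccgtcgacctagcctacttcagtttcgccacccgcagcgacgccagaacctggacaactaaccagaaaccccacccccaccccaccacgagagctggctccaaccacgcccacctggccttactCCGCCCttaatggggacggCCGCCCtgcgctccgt
Mrpl52: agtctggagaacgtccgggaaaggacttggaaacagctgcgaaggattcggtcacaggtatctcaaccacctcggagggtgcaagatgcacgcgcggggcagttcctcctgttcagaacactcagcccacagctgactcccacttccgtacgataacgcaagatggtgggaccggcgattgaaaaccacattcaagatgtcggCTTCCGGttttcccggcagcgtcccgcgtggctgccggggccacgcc
Mrps22: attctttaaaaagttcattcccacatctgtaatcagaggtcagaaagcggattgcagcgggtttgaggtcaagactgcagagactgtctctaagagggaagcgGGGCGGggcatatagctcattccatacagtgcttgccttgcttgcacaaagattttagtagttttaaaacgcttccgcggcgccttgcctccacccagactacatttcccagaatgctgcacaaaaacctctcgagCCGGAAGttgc
Mrps17: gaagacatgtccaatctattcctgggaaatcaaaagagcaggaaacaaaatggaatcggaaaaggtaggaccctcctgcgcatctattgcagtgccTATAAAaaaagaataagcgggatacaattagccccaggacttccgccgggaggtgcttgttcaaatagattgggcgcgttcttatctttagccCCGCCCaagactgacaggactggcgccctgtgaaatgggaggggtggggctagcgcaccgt

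Total counts were 19032620 to 23159815 per library, and 3 counts corresponded to 0.133 to 0.156 CPM (counts scaled to a common library total, with TMM factors). WT replicate 2 stood apart, with 11513 genes detected against 14442 to 14737 in the other 5. Most comparisons of the groups are therefore given with and without it. The targeted gene Xrcc6 was at 20.9, 63.1 and 23.8 CPM in WT replicates 1 to 3 and at 5.24, 3.51 and 4.18 CPM in cKO, with no overlap between the groups. Its log2 fold change was −3.06 ± 0.48 (SE) with all 6 libraries, where no gene passed an adjusted p under 0.05 in edgeR. Without WT replicate 2 it was −2.38 ± 0.20 (SE; edgeR quasi-likelihood test, adjusted p = 0.0196). In DESeq2, Xrcc6 passed with all 6 libraries (adjusted p = 1.22e-05). All libraries had high mRNA levels of the Treg markers Foxp3 (150 to 282 CPM), Cd4 and Cd3e. Cd8a was at 2.60 CPM or less, and Cd8b1 was at 5.22 to 18.5 CPM in WT and 17.3 to 17.9 CPM in cKO. The summed level of 4 macrophage and dendritic cell markers (Csf1r, Adgre1, Lyz2 and Itgax) was 140, 517 and 548 CPM in WT and 185, 378 and 738 CPM in cKO, so the groups overlapped, and its part in the results below was not tested.

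All 78 genes were expressed. Mean levels over the 6 libraries ran from 5.89 CPM (Mrpl47) to 107 CPM (Mrpl33) with a median of 35.7 CPM, and together the genes made up 0.262% to 0.335% of the counts. All 78 entered the test, which took genes with at least 1 count in all, all 78 passed edgeR's filter on low counts, and 76 had at least 1 count in every library. In bulk RNA, fewer cells and less RNA per cell cannot be told apart. Per kilobase of merged exons, the median level was 15.4 CPM for the large and 12.04 CPM for the small subunit, and single genes spanned 39.6-fold, although one copy of most of these proteins is built into each ribosome.

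In the large subunit, the highest levels per kilobase of merged exons were those of Mrpl52 (52.8), Mrpl54 (49.2) and Mrpl14 (47.7), and the lowest those of Mrpl1 (3.39) and Mrpl47 (1.33). In the small subunit they were Mrps21 (47.6), Mrps6 (46.2) and Mrps18c (37.5) at the top and Mrps10 (2.52) and Mrps22 (1.76) at the bottom. Merged exons count long rare transcripts in full, so the order was also taken per kilobase of the median protein-coding transcript of the gene, a choice made after the data were seen. Mrpl52, Mrpl1 and Mrpl47 then ranked 2, 48 and 49 of 49, and Mrps21, Mrps6 and Mrps22 ranked 2, 1 and 28 of 29. Mrps10 moved up to rank 18, and Mrpl33, whose merged exons are 7326 bases long, moved from rank 27 to rank 1. Mrpl54 moved from rank 2 to 8, Mrpl14 from 3 to 6 and Mrps18c from 3 to 4, so the order at the top depends on the length used.

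The summed levels of both subunits overlapped between WT and cKO. The 49 large subunit genes summed to 2318, 1579 and 1926 CPM in WT replicates 1 to 3 and to 1804, 2277 and 1962 CPM in cKO. The 29 small subunit genes summed to 1154, 806 and 955 CPM in WT and to 926, 1122 and 951 CPM in cKO. The lowest value of each subunit was that of WT replicate 2, the highest that of WT replicate 1, and the cKO libraries lay between them. The ratio of the large to the small sum was 2.01, 1.96 and 2.02 in WT and 1.95, 2.03 and 2.06 in cKO. On the log2 scale the ratio differed between the groups by 0.01 (cKO minus WT), within 1 SD of the libraries (0.035).

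**Figure D2:**
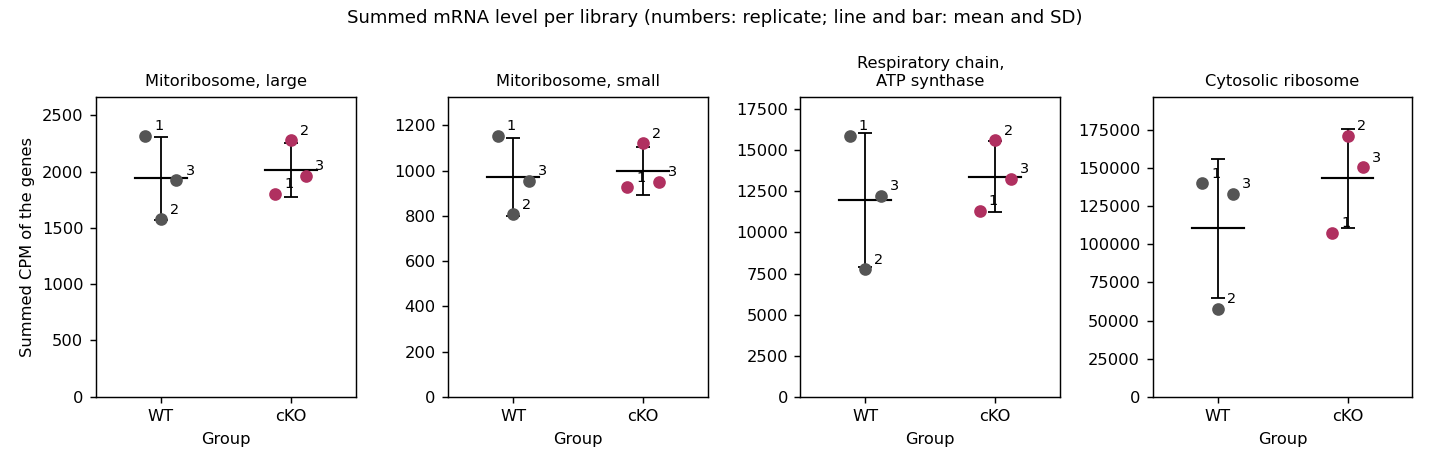
Summed CPM (y axis, starting at 0 and scaled for each panel) in WT and cKO libraries (x axis) for the large and small subunit of the mitoribosome, for nuclear genes of the respiratory chain and ATP synthase, and for cytosolic ribosomal proteins; points are libraries with their replicate number, lines means and bars SD (n = 3). WT replicate 2 is the lowest point in each panel (1579 CPM for the large and 806 CPM for the small subunit), and WT and cKO overlap in every panel.

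No mitochondrial ribosomal protein gene passed the test of cKO against WT after adjustment. At an adjusted p under 0.05, 0 of 78 passed with all 6 libraries (edgeR, lowest adjusted p 0.984), beside 0% of 15315 genes, and 0 of 78 passed without WT replicate 2 (lowest adjusted p 0.997), beside 0.00654%, which was Xrcc6. At an unadjusted p under 0.05, 1 of 78 (1.28%) was lower in cKO and 0 were higher with all 6 libraries, beside 0.868% lower and 0.94% higher among all genes. Without WT replicate 2 the count was 0 of 78, beside 3.01% of all genes. DESeq2 gave 1 and 0 genes at an unadjusted p under 0.05 with and without that library, beside 2.01% (1.39% lower in cKO) and 2.42%.

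The 1 gene was Mrpl55, which encodes a homolog of the bacterial large subunit protein bL31. Its level was 34.3, 53.0 and 26.3 CPM in WT replicates 1 to 3 and 19.7, 25.8 and 23.8 CPM in cKO. The groups did not overlap, and WT replicate 2 was the highest library. The log2 fold change was −0.71 ± 0.28 (SE; edgeR, unadjusted p = 0.0374, adjusted p = 0.984) with all libraries and −0.39 ± 0.18 (unadjusted p = 0.0578, adjusted p = 0.997) without WT replicate 2.

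Most of the spread in fold changes over all 6 libraries went with WT replicate 2. With it, log2 fold changes of the members ran from −0.75 (Mrps10) to 0.59 (Mrps2) with a median SE of 0.25. Without it they ran from −0.39 (Mrpl55) to 0.23 (Mrps2) with a median SE of 0.17. The 95% interval of the fold change lay within 2-fold in either direction for 51 of 78 genes with all libraries and for 78 of 78 without WT replicate 2, and within 1.5-fold for 19 and 57. Taken singly, the intervals without that library, with 2 WT libraries left, thus stayed under 2-fold, and for 21 genes the interval reached past 1.5-fold, so that a difference of that size is within it.

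**Figure D3:**
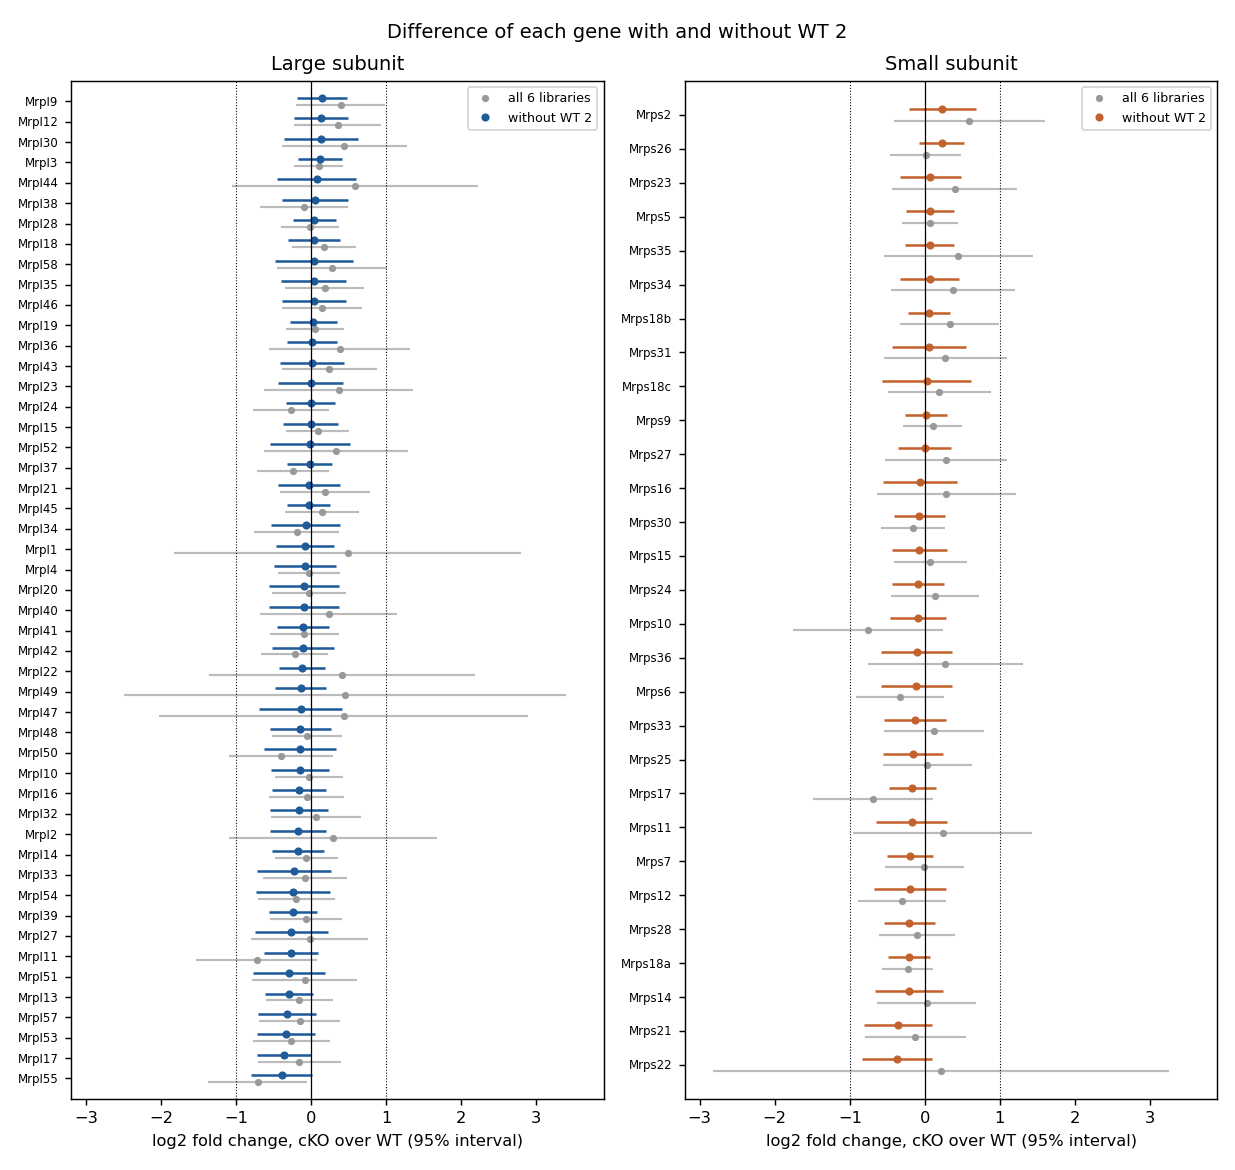
Log2 fold change of cKO over WT (x axis) for each gene of the large (left, n = 49) and small (right, n = 29) subunit, with 95% intervals, from all 6 libraries (gray) and without WT replicate 2 (colored); genes are ordered by the value without that library, and dotted lines mark 2-fold. The colored intervals all stay between the dotted lines, while the gray ones of Mrpl49, Mrpl1, Mrpl47 and Mrps22 span more than 4 units.

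The median log2 fold change was −0.02 in the large subunit (24 genes higher, 25 lower) and 0.10 in the small subunit (20 higher, 9 lower), beside 0.04 over all genes. Without WT replicate 2 both medians were −0.09 (14 higher and 35 lower, and 10 higher and 19 lower), beside −0.01. The share of the 78 genes that were higher in cKO was 56.4% with all libraries, beside 54.5% of all genes, and the share that were lower without WT replicate 2 was 69.2%, beside 51.4%. Leaving out WT replicate 1 in place of WT replicate 2 turned this around, with 56 genes higher and 22 lower. The medians were then 0.16 and 0.24, beside 0.11 over all genes. With cKO replicate 1 left out the medians were 0.081 and 0.19, beside 0.037 over all genes. Use of limma voom with quality weights gave 0.010 and −0.0077, beside 0.017 over all genes, so neither median has a settled sign. The 10 genes named Mrps whose proteins are found in mitochondria and have no bacterial homolog, Mrps36 apart, had a median of 0.24 with 9 higher. The 1 lower gene was Mrps30 (−0.16), whose protein sits in the large subunit. Without WT replicate 2 the median of the 10 was 0.03 with 5 higher.

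Counted by library, 4 genes were lower in every cKO than in every WT library (5.13%, beside 3.23% of all genes), namely Mrpl11, Mrpl55, Mrps17 and Mrps18a, and 1 was higher (1.28%, beside 5.01%), namely Mrpl3. Mrps18a was at 40.8, 41.5 and 38.5 CPM in WT and at 34.6, 33.9 and 34.7 CPM in cKO, a log2 fold change of −0.23 ± 0.14 (edgeR, unadjusted p = 0.154). Mrps17, a homolog of bacterial uS17, was at 38.3, 81.0 and 31.4 CPM in WT and at 31.3, 31.2 and 30.9 CPM in cKO, so WT replicate 2 was the high library and WT replicate 3 lay just above the cKO level. The log2 fold change of Mrps17 was −0.69 ± 0.34 with all libraries and −0.17 ± 0.14 without WT replicate 2. Mrpl3, which lines the peptidyl transferase region, was at 42.6, 42.4 and 38.7 CPM in WT and 43.4, 43.3 and 46.0 CPM in cKO. Its log2 fold change was 0.10 ± 0.14 with all libraries and 0.12 ± 0.13 without WT replicate 2. Without WT replicate 2, 12 genes lay below in cKO (15.4%, beside 7.53%) and 2 above (2.56%, beside 8.48%). The 12 were Mrpl11, Mrpl13, Mrpl16, Mrpl17, Mrpl22, Mrpl39, Mrpl55, Mrps7, Mrps17, Mrps18a, Mrps22 and Mrps28, the 2 were Mrpl3 and Mrps26, and the lowest p among them was that of Mrpl17 (log2 fold change −0.36 ± 0.16, edgeR, unadjusted p = 0.0528, adjusted p = 0.997).

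The stalk of the large subunit, which recruits translation factors, is formed by Mrpl12 on a base of Mrpl10 and Mrpl11. Mrpl10 was at 75, 49.9 and 55.6 CPM in WT and at 51.4, 61.1 and 64.3 CPM in cKO. Mrpl12 was at 48.2, 25.8 and 41.2 CPM in WT and at 41.7, 53.5 and 52.0 CPM in cKO. Mrpl11 was at 16.97, 34.5 and 15.6 CPM in WT and at 13.04, 13.2 and 14.4 CPM in cKO. WT replicate 2 was thus the lowest library for Mrpl10 and Mrpl12 and the highest for Mrpl11, and the log2 fold changes without it were −0.15 ± 0.17, 0.13 ± 0.16 and −0.27 ± 0.16 in the same order, none with an unadjusted p under 0.05.

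The groups overlapped for 3 other large subunit genes with a known special role. Mrpl45, which anchors the ribosome to the inner membrane, was at 36.3, 22.8 and 32.99 CPM in WT and at 33.9, 33.9 and 33.9 CPM in cKO. Mrpl58 (also Ict1), a peptidyl-tRNA hydrolase that became a ribosomal protein, was at 38.1, 20.9 and 40.2 CPM in WT and at 27.8, 49.1 and 43.4 CPM in cKO. Mrpl44, which is related to RNase III, was at 22.4, 2.11 and 15.1 CPM in WT and at 20.2, 23.7 and 15.4 CPM in cKO. WT replicate 2 was the lowest library for all of these genes, and without it their log2 fold changes were −0.03 ± 0.13, 0.04 ± 0.23 and 0.07 ± 0.23.

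Among the genes named for the small subunit, Mrps12 of the decoding center was at 24.9, 27.02 and 18.8 CPM in WT and at 16.7, 23.8 and 16.7 CPM in cKO. The homologs Mrps18b and Mrps18c of the same bacterial protein were measured too, and Mrps18b was at 38.1, 18.8 and 39.5 CPM in WT and at 40.3, 38.9 and 42.0 CPM in cKO. Mrps18c was at 52.0, 28.2 and 32.99 CPM in WT and at 33.3, 56.6 and 39.3 CPM in cKO. Mrps30 was at 28.9, 34.6 and 29.7 CPM in WT and at 27.4, 31.5 and 24.7 CPM in cKO, and Mrps36 at 59.5, 15.2 and 41.7 CPM in WT and 39.5, 57.0 and 44.1 CPM in cKO. The groups overlapped for each of these genes other than Mrps18a, and the log2 fold changes without WT replicate 2 lay between −0.21 (Mrps18a) and 0.06 (Mrps18b).

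The levels of the 78 genes were disturbed in WT replicate 2 in both directions. Across the 78 genes, which are not independent replicates and share their libraries, Pearson's r of log2(CPM + 0.5) was 0.949 to 0.977 between any pair of the other 5 libraries and 0.644 to 0.691 between those and WT replicate 2. This library was the lowest of the 6 for 51 genes (65.4%, beside 40.6% of the 7443 genes in the same range of levels) and the highest for 16 (20.5%, beside 37.6%). It lay more than 2-fold below the mean of the other 5 for 21 genes (26.9%, beside 16.7%) and more than 2-fold above it for 4 genes (5.13%, beside 6.7%). In none of the other 5 libraries did a gene of the 78 lie more than 2-fold from the mean of the others.

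Some genes were nearly lost in WT replicate 2. Mrpl49, with 339 to 431 counts in the other 5 libraries, and Mrps22, with 152 to 230, had 0 counts there, which allows up to 0.141 CPM at 3 counts. A count of 0 was found for 135 of the 7443 genes of like level (1.81%). Mrpl47 had 3 counts (130 to 165 in the others), Mrpl1 had 8 (318 to 407) and Mrpl22 had 39 (445 to 534). In the small subunit, Mrps11 had 108 counts (305 to 475) and Mrps35 had 196 (594 to 739). Such losses gave wide errors in the comparison of the groups, as for Mrps22, whose log2 fold change was 0.22 ± 1.301 with and −0.37 ± 0.21 without this library.

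The genes highest above the others in WT replicate 2 were Mrpl11, Mrpl55 and Mrpl50 in the large and Mrps10, Mrps17 and Mrps6 in the small subunit. Mrps10 was at 44.4 CPM there and at 13.5 to 17.3 CPM in the other 5 libraries, and Mrpl50 at 30.3 CPM beside 13.2 to 21.7 CPM. The deviation did not follow the level in 1 direction: for the 26 genes of lowest level the median was −0.63 on the log2 scale (11 genes more than 2-fold lower and 3 higher), for the middle 26 it was −0.36 (4 and 1) and for the highest 26 it was −0.72 (6 and 0).

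**Figure D4:**
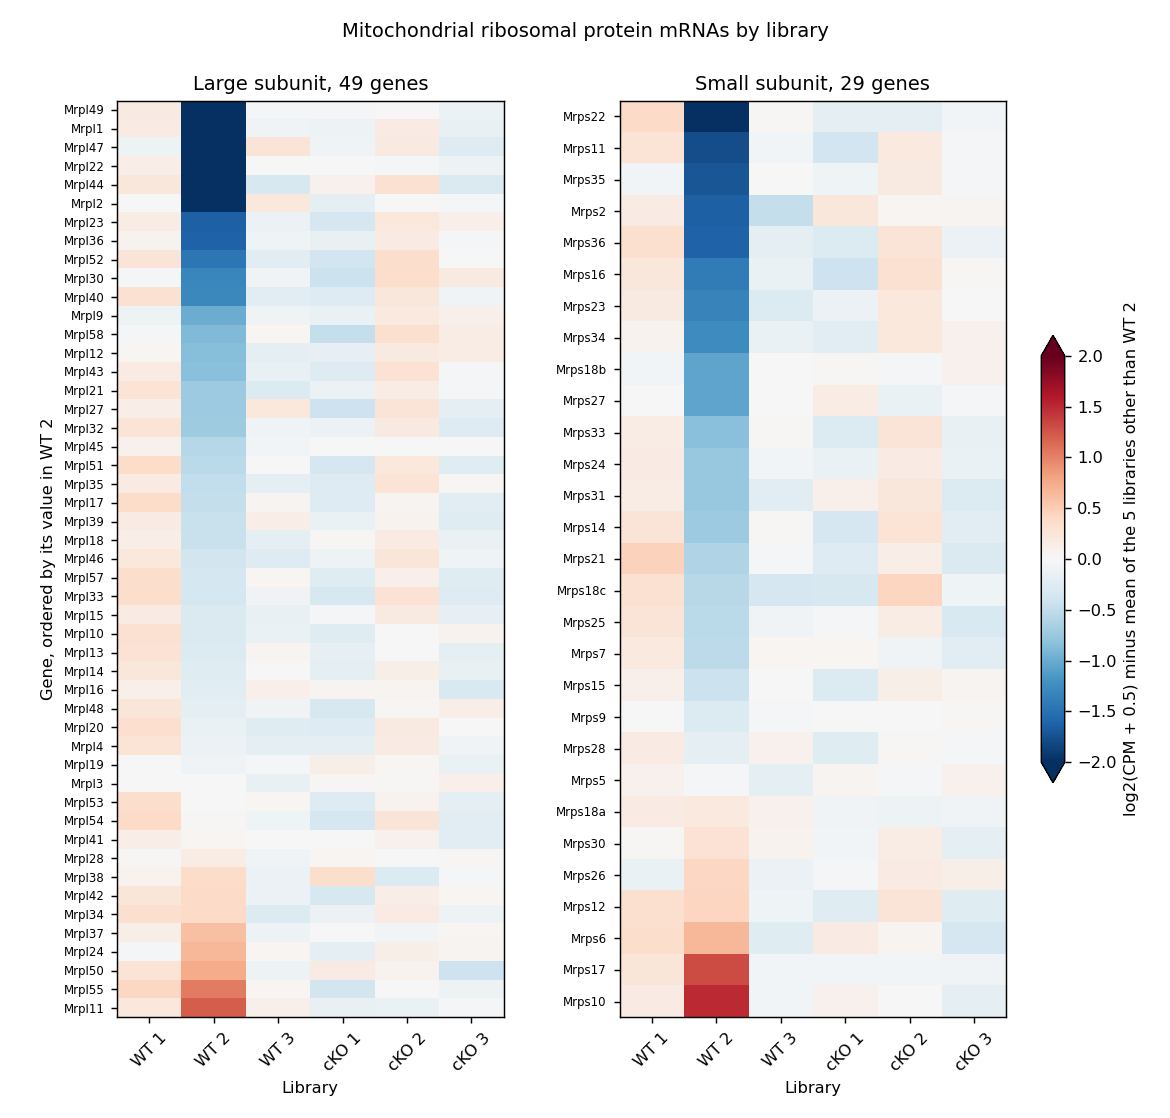
Log2(CPM + 0.5) of each gene (rows, ordered by the value in WT replicate 2) in each library (columns), minus its mean over the 5 libraries other than WT replicate 2, for the large (left) and small (right) subunit; the color scale ends at 2 in both directions. The WT replicate 2 column runs from dark blue (Mrpl49, Mrps22) to red (Mrpl11, Mrps10), while WT replicate 1 and cKO replicate 2 are mostly pale red and cKO replicate 1 mostly pale blue.

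In the other 5 libraries the genes moved together, and the direction did not follow the genotype. Against the mean of the other libraries, WT replicate 2 left out, 66 of the 78 were higher in WT replicate 1 (median 0.21 on the log2 scale) and 64 in cKO replicate 2 (0.18). In WT replicate 3, cKO replicate 1 and cKO replicate 3, 23, 18 and 22 were higher, with medians of −0.09, −0.17 and −0.09. Each genotype thus held 1 library in which most of the genes were high and at least 1 in which most were low. Both subunits did so: 41 of 49 large and 25 of 29 small subunit genes were higher in WT replicate 1, and 42 and 22 were higher in cKO replicate 2.

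Other genes of like transcript length shifted in the same directions with smaller medians, a comparison added after the data were seen. Among 2081 other genes in the members' range of levels and with a median protein-coding transcript of 778 to 2051 bases (the middle range of the members), 66.9%, 39.4%, 35.3%, 64.2% and 43.3% were higher in WT replicates 1 and 3 and cKO replicates 1 to 3, with medians from −0.07 to 0.10. For the 7443 genes of the same levels and any length the shares were 46.5% to 58.7%. The part of transcript length in the shift was not tested.

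The most like families also shifted by library, the respiratory chain in the same directions in all 5 and the cytosolic ribosome in 4 of them, cKO replicate 3 apart. Of 83 nuclear genes for subunits of the respiratory chain and ATP synthase, 80, 6, 1, 77 and 28 were higher in WT replicates 1 and 3 and cKO replicates 1 to 3, with medians from −0.34 to 0.36. Of 82 cytosolic ribosomal protein genes, 53, 16, 2, 81 and 65 were higher, with medians from −0.46 to 0.40. In WT replicate 2 the median deviation was −1.29 for cytosolic ribosomal proteins, −0.83 for respiratory chain and ATP synthase subunits and −0.48 for mitochondrial ribosomal proteins (−0.36 large, −0.60 small), beside −0.01 for all genes of the members' levels. Between cKO and WT, the median log2 fold change of the cytosolic ribosomal proteins was 0.37 with all libraries (80 of 82 higher, 1 at an unadjusted p under 0.05, Rps27rt). Without WT replicate 2 it was 0.06 (67 higher, 15 lower, 1 at that p). For the respiratory chain and ATP synthase the median was 0.15 with all libraries (66 of 83 higher, 0 at that p). Without WT replicate 2 it was −0.11 (69 lower, 1 at that p, Ndufb4b). Among all genes, 54.5% were higher with all libraries and 51.4% were lower without WT replicate 2. At that p (edgeR), 1.81% of all genes passed with all libraries and 3.01% without WT replicate 2. No gene of either list passed at an adjusted p under 0.05.

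No other listed gene of mitochondrial translation passed the test of cKO against WT. Mitoribosomal proteins with other symbols had log2 fold changes without WT replicate 2 of 0.08 ± 0.12 (Dap3), 0.03 ± 0.16 (Ptcd3), −0.02 ± 0.18 (Aurkaip1), −0.30 ± 0.17 (Chchd1) and 0.03 ± 0.15 (Gadd45gip1). Dap3, a GTP-binding small subunit protein, was at 128 CPM in WT replicate 2 and at 65.5 to 71.3 CPM in the other 5 libraries, while Gadd45gip1 was at 9.45 CPM there and at 29.7 to 36.8 CPM in the others. Of 14 translation factors, 31 genes of ribosome assembly, rRNA modification and mitochondrial transcription, and 19 aminoacyl-tRNA synthetases of mitochondria, 0 had an unadjusted p under 0.05 in edgeR or DESeq2 with all libraries, beside 1.81% and 2.01% of all genes, and 0 in edgeR without WT replicate 2, beside 3.01%. Their median log2 fold changes were 0.049, −0.0015 and 0.10, and −0.060, 0.0018 and 0.014 without WT replicate 2. Gfm1, the elongation factor that moves the ribosome along the mRNA, was among the translation factors of lowest p without WT replicate 2. It was at 23.1, 22.3 and 19.5 CPM in WT and at 25.9, 23.5 and 25.5 CPM in cKO. Every cKO library was thus above every WT library, which held for 5.01% of all genes. The log2 fold change of Gfm1 with all libraries was 0.21 ± 0.19 (unadjusted p = 0.295, edgeR).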

How the data were processed

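RNA was extracted with TRIzol, libraries were made with a SMARTER mRNA kit, and paired-end reads of sorted Tregs were aligned to GRCm38. The submitters' processing notes name Bowtie2 2.3.4.3 and RSEM 1.3.1. The authors deposited 1 table of expected counts per gene symbol, not normalized. Its values were not whole in 21.6% of entries. Such values were found for 18 of the 78 members (23.1%, Mrpl1 and Mrps6 among them), beside 26.9% of all genes. Reads of these genes can be shared with near-identical copies. Counting by strand is not stated in the sources used here, and 36 members overlap a gene on the other strand and 13 one on the same strand (GENCODE vM21), so their levels can hold reads of that gene.

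Counts were rounded and tested with edgeR 4.0.16 (quasi-likelihood, TMM) in R 4.3.3 over the 15315 genes with at least 1 count, with Benjamini-Hochberg adjustment. The F statistic and the size of each fold change gave its SE. DESeq2 1.42.0, limma 3.58.1, other scalings and filters, a replicate block and each library left out were alternatives. Libraries of a group differed by more than sampling noise. Symbols gave positions for 14783 of 15319 genes and for 78 of 78 members. Named genes were those of lowest p, the highest and lowest levels per length, the largest deviations in WT replicate 2 and set roles, with the 2 of lowest p from each other list, and others were named after their values were seen. The members and lists were chosen with earlier results of these data known. In simulated data of all 6 libraries, edgeR recovered 14 of 100 genes at a log2 fold change of 1 and 72 of 100 at 2. Without WT replicate 2 it recovered 72 and 98 of 100. It also called 8 unchanged genes with all 6 libraries and 18 without WT replicate 2. Each gene had the same spread in every simulated library, so the disturbance of WT replicate 2 alone was not copied. The changed genes were drawn from those of higher counts, so these rates do not hold for genes of low counts.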

Additional observations from a re-analysis of the deposited data

How the results depend on the processing

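No mitochondrial ribosomal protein gene passed an adjusted p under 0.05 under any alternative that was run. Among all genes, 2 passed in DESeq2 with all 6 libraries, Xrcc6 among them, and 3 in DESeq2 without WT replicate 2. In edgeR, 0 to 1 passed when each library was left out (1 without WT replicate 2). The count of members at an unadjusted p under 0.05, 1 as reported, was 0 to 5 when each library was left out. With limma voom with quality weights it was 0, beside 543 of 15315 genes. In DESeq2 without WT replicate 2 it was 0, beside 370 of 15302. It was 5 without WT replicate 3 (Mrpl11, Mrpl55, Mrps10, Mrps17 and Mrps6), beside 575 of 15302 genes. Without WT replicate 1 it was 2 (Mrpl21 and Mrps2), beside 874 of 15312. It was 0 without WT replicate 2, beside 461 of 15302. Without any 1 cKO library it was also 0, beside 65 to 184 among all genes. The number of genes at that p thus changed with the library left out for all genes too. The cause was not tested. The median log2 fold change of all genes moved from 0.04 to 0.11 when WT replicate 1 was left out, and to 0.10 when WT replicate 3 was. The difference between the groups (cKO minus WT) in the log2 ratio of large to small subunit turned from 0.01 to −0.043 when medians of log2(CPM + 0.5) replaced the sums. Over the fits that left out 1 library each, the median log2 fold change ran from −0.09 to 0.16 in the large and from −0.09 to 0.24 in the small subunit.

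Correlations of the deviations of same-numbered libraries were 0.114, −0.0941 and 0.211, beside −0.28 to 0.161 for differently numbered ones. So few values cannot settle whether replicate numbers pair the libraries. With a replicate block, 0 genes passed at an adjusted p under 0.05, 85 in place of 277 passed at an unadjusted p under 0.05, Mrpl55 was again the 1 member at that p, and the subunit medians were 0.00 and 0.11. Direction turned under the block for Polrmt (0.026) and Ndufa4 (0.038). With limma it turned for Mrps11 (−0.021), Dap3 (0.0495), Ptcd3 (−0.023), Chchd1 (−0.21), Mrrf (−0.24), Mettl15 (0.032), Polrmt (0.26) and Tfb2m (0.22).

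Leaving out each library turned the direction of the following log2 fold changes, all without a call. In the large subunit the ranges were −0.082 to 1.01 (Mrpl1), −0.15 to 0.16 (Mrpl10), −0.17 to 0.058 (Mrpl14), −0.032 to 0.28 (Mrpl45), −0.14 to 1.04 (Mrpl47), −0.14 to 0.98 (Mrpl49) and −0.0145 to 0.74 (Mrpl52). In the small subunit they were −0.18 to 0.65 (Mrps11), −0.055 to 0.49 (Mrps18c), −0.36 to 0.17 (Mrps21), −0.37 to 0.83 (Mrps22) and −0.11 to 0.72 (Mrps36). For other genes they were −0.017 to 0.33 (Aurkaip1), −0.30 to 0.42 (Chchd1), −0.47 to 0.083 (Dap3), −1.04 to 0.038 (Mettl15), −0.32 to 0.55 (Mrrf), −0.58 to 0.039 (Mtif2), −0.30 to 0.33 (Ndufa4), −0.16 to 0.30 (Polrmt) and −0.40 to 0.36 (Tfb2m). Of the 50 genes chosen by the naming rule, none turned under the other scalings, the filter, the robust fit or DESeq2. With library size only, the members went from 34 lower and 44 higher to 38 and 40.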
